A study of Drosophila melanogaster with 2 samples.

Results

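Aminoacyl-tRNA synthetases attach amino acids to their tRNAs, and their genes were examined here for binding of the HMG-box protein bbx (bobby sox) in fly embryos. The genes were taken by symbol: every protein-coding gene named by a 3-letter amino acid code followed by RS or RS-m, with GluProRS and both PheRS subunits included. This gave 35 of 13968 protein-coding genes, of which 20 without the suffix -m are called cytoplasmic here and 15 with it mitochondrial. The split rests on the symbol alone, and some genes without the suffix may encode enzymes of both compartments. The study was chromatin immunoprecipitation with sequencing (ChIP-seq) by an anti-GFP antibody on whole embryos of Drosophila melanogaster, 0 to 24 h old. Both samples, biological replicates 1 and 2, came from transgenic flies that made a bbx-eGFP fusion protein, so all the data belong to 1 group and no untagged embryos were used here. The study's text names no cell type, and in whole embryos binding in fewer cells and weaker binding in each cell cannot be told apart.

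Each synthetase recognises 1 amino acid and the tRNAs that carry it, spends ATP to join them, and so sets which amino acid a codon is read as. Animal cells make proteins both in the cytoplasm and inside mitochondria, and the nuclear genome encodes the enzymes for both, in many cases as separate genes. Uncharged tRNA signals amino acid shortage through the kinase Gcn2 and the transcription factor ATF4, whose known targets in mammals include many synthetase genes.

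A gene was counted as occupied when the summit of a peak in the authors' conservative set lay within 500 bp of one of its transcription start sites (TSSs). That set holds peaks found reproducibly between both replicates, at an irreproducible discovery rate (IDR) of at most 0.01. By this rule 16 of the 35 synthetase genes were occupied (45.7%, 95% Wilson interval 30.5 to 61.8%), against 30.8% of all protein-coding genes, a share that the lower end of the interval just takes in. The share was 11 of 20 for the cytoplasmic enzymes (55%, 34.2 to 74.2%) and 5 of 15 for the mitochondrial enzymes (33.3%, 15.2 to 58.3%). These intervals overlap, cover counting error only, and the mitochondrial share lies near the background. Peak signal, used throughout below, is the authors' value of enrichment for each peak, on a scale that no source used here names. The 16 occupied genes had a median pooled signal of 144, and the 4304 occupied protein-coding genes one of 133. The median was 228 in the 11 cytoplasmic genes and 143 in the 5 mitochondrial genes.

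The sequences just before the TSS of 6 of these genes are shown, because they hold the letters described further on and set occupied promoters beside unoccupied ones. They were read from RefSeq's release 6 genome, whose coordinates are those of dm6, and run 5′ to 3′ towards the gene. TrpRS, the gene with the strongest peak of the family, comes from chr3R:9266905-9267018 (minus strand), and IleRS from chr3L:22288545-22288664 (plus strand). Their mitochondrial counterparts, neither of which was occupied, come from chr3L:17849607-17849726 (plus strand) and chr3L:16100160-16100279 (plus strand). The occupied genes beta-PheRS and LeuRS-m come from chr3R:24252680-24252799 (minus strand) and chr3L:4825733-4825852 (plus strand).
TrpRS: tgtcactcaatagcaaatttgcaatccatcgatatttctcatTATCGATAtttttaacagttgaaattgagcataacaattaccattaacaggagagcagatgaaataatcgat
TrpRS-m: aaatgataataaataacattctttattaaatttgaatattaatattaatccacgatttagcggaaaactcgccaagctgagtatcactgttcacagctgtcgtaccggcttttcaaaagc
IleRS: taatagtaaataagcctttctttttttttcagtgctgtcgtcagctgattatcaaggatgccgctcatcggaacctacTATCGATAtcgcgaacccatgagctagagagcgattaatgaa
IleRS-m: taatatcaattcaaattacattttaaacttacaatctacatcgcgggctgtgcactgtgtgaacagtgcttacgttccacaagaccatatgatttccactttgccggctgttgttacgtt
beta-PheRS: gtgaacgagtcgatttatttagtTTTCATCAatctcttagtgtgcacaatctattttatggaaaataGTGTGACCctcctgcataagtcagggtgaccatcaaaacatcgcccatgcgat
LeuRS-m: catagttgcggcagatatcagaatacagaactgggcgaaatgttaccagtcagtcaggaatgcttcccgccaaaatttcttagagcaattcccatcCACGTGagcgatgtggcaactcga
Capitals mark the DNA replication-related element (DRE, TATCGATA) in TrpRS and IleRS, and the E-box CACGTG in LeuRS-m. In beta-PheRS they mark, in order, an ATF4 element (TGATGNAA) and the core of promoter motif 1 (GGTCACAC), both read on the opposite strand. The 2 unoccupied sequences hold none of these 4 motifs in the stretch shown. The occupied sequences shown were picked for their motifs. The stretches just before the TSS of the occupied GlnRS, GluProRS, GlyRS, AsnRS, AspRS-m, ValRS-m and AlaRS-m hold none of them either.

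The DRE was present at 7 of the 16 synthetase summits, and 6 of its occurrences are set side by side with 11 bases on either side, in the direction of the synthetase gene.
TrpRS: atatttctcatTATCGATAtttttaacagt
IleRS: tcggaacctacTATCGATAtcgcgaaccca
ArgRS: gctgttatcgtTATCGATAggcgacgtgtg
AlaRS: atctctaaatcTATCGATAtctcatccagt
GlyRS: aaaactaaacaTATCGATAacgaagaaggc
AsnRS: gaatttatattTATCGATAataaatgaggg
Capitals mark the DRE, which is its own reverse complement. Their places are chr3R:9266958-9266987 (minus strand), chr3L:22288612-22288641 (plus strand), chrX:15844161-15844190 (minus strand), chr2L:8381765-8381794 (minus strand), chr3L:15094714-15094743 (plus strand) and chr2L:19132324-19132353 (minus strand). The bases on either side of the element differed from gene to gene. The elements of GlyRS and AsnRS lie at -414 and -385 bp from the synthetase TSS, beside the start of a gene on the opposite strand.

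Among the cytoplasmic enzymes, the strongest summits were high in both replicates. TrpRS, which charges tRNA with tryptophan, had a signal of 393 in replicate 1 and 263 in replicate 2, and 659 in the pooled reads (chr3R:9266824-9267094, summit at -41 bp from the TSS). This placed it at rank 80 of the 4304 occupied protein-coding genes. GlnRS, the glutamine enzyme, had 261 in replicate 1, 164 in replicate 2 and 433 pooled (chr3R:25265687-25265894, -69 bp), at rank 281. In both genes replicate 1 was the higher sample, and both replicates exceeded those of every other synthetase gene.

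The next cytoplasmic genes had closer replicates. The gene beta-PheRS, for the subunit of phenylalanyl-tRNA synthetase that works in a complex with the alpha subunit, had 167 in replicate 1, 161 in replicate 2 and 331 pooled (chr3R:24252613-24252790, -23 bp). AspRS, the aspartate enzyme, had 141 in replicate 1, 144 in replicate 2 and 292 pooled (chr2R:12880172-12880379, 5 bp). These 2 genes ranked 575 and 742, and their replicates differed by SDs of 4.72 and 2.56 (n = 2 each). GluProRS, a fused enzyme for glutamate and proline, had 107 in replicate 1, 123 in replicate 2 and 228 pooled (chr3R:23958392-23958526, -75 bp). IleRS, the isoleucine enzyme, had 92.6 in replicate 1, 127 in replicate 2 and 228 pooled (chr3L:22288556-22288703, -26 bp). In GluProRS and IleRS replicate 2 was the higher sample, opposite to TrpRS and GlnRS, so no replicate was high throughout the group.

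The 5 remaining occupied cytoplasmic genes lay near or under the median of occupied protein-coding genes. GlyRS, the glycine enzyme, had 71.1 in replicate 1, 60.5 in replicate 2 and 134 pooled (chr3L:15094561-15094916), with the summit far upstream at -403 bp. ArgRS (arginine) had 66.9 in replicate 1, 57.2 in replicate 2 and 122 pooled at -90 bp. AsnRS (asparagine) had 59.6 in replicate 1, 62.0 in replicate 2 and 105 pooled at -398 bp. AsnRS also had a weaker summit close to its TSS, at -28 bp, with a pooled signal of 55.9. Weaker second summits were also present at ArgRS, at -300 bp with 68.7 pooled, and at IleRS, at -487 bp with 60.5 pooled. AlaRS, the alanine enzyme, had 64.0 in replicate 1, 43.4 in replicate 2 and 101 pooled at -17 bp. MetRS, the methionine enzyme, was the weakest of the occupied cytoplasmic genes, with 57.9 in replicate 1, 29.2 in replicate 2 and 81.4 pooled (chr2R:18850538-18850893, -117 bp). In MetRS the replicates differed most in proportion among the 11, and replicate 1 was the higher one.

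Of the mitochondrial enzymes, AspRS-m stood highest. This aspartate enzyme had 141 in replicate 1, 131 in replicate 2 and 279 pooled (chr2L:16826949-16827124, -19 bp), at rank 810. LeuRS-m, the leucine enzyme, had 73.6 in replicate 1, 74.3 in replicate 2 and 144 pooled (chr3L:4825589-4825944, -86 bp). PheRS-m, a phenylalanine enzyme encoded by a single gene, had 74.6 in replicate 1, 69.5 in replicate 2 and 143 pooled (chr2R:13967997-13968352, -133 bp). The replicates of these 3 genes were close, and all 3 had pooled signals above the occupied median of 133. ValRS-m, the valine enzyme, had 60.7 in replicate 1, 26.8 in replicate 2 and 94.9 pooled (chr3L:8964327-8964682), and its summit lay inside the gene at 158 bp. AlaRS-m, the alanine enzyme, had 30.8 in replicate 1, 34.0 in replicate 2 and 60.6 pooled (chr3L:5145902-5146257, -18 bp), the lowest of the 16 occupied genes. Neither ValRS-m nor AlaRS-m was in the thresholded list of replicate 2 taken alone.

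**Figure D1:**
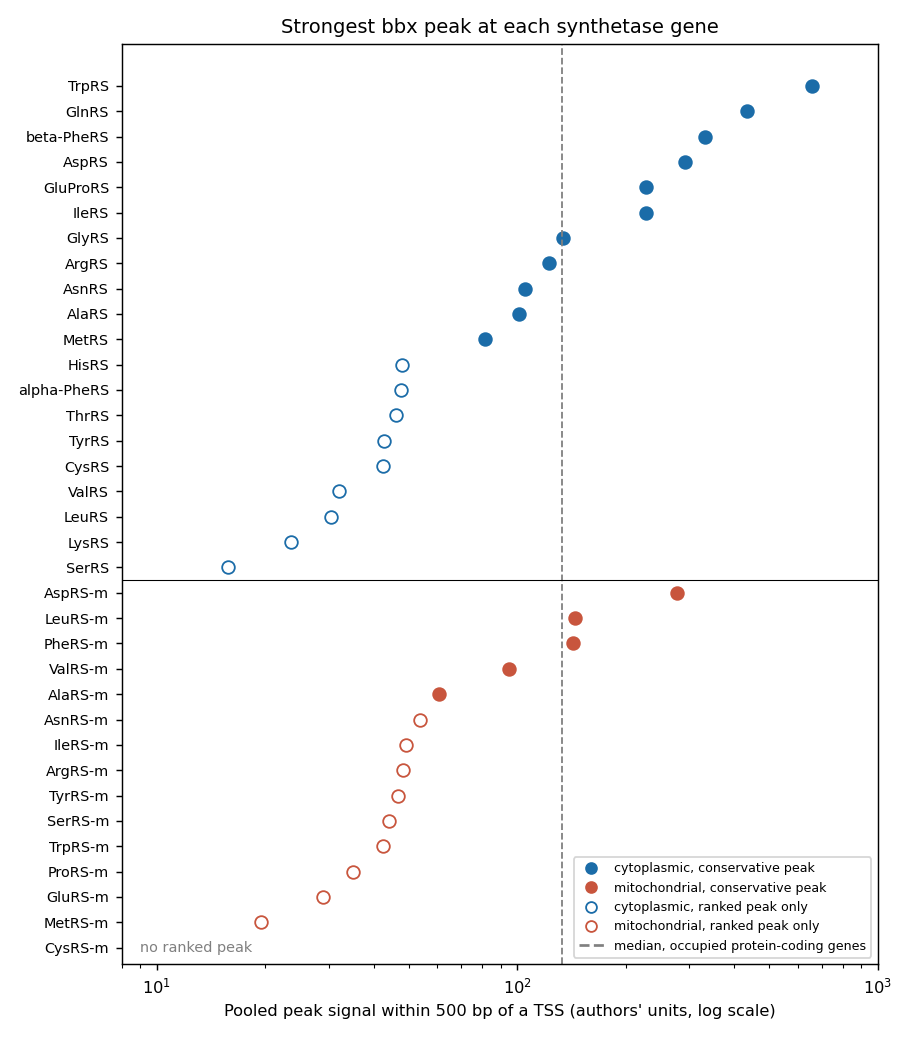
Pooled signal of the strongest bbx peak within 500 bp of a TSS for each synthetase gene, on a log axis in the authors' units, cytoplasmic enzymes above and mitochondrial enzymes below. Filled points are conservative peaks, open points are peaks of the ranked list alone, and the dashed line is the median of 133 over occupied protein-coding genes; filled points reach from 60.6 to 659 and open points end at 53.7.

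Counted in each replicate's own thresholded list, replicate 1 had a summit at 16 of the 35 genes, where 30.6% of all protein-coding genes had one. Replicate 2 had one at 13 of the 35, where the background was 23.7%. By compartment these were 11 cytoplasmic and 5 mitochondrial genes in replicate 1, and 10 cytoplasmic and 3 mitochondrial genes in replicate 2. Of the 16 occupied genes, 13 were in both lists. AlaRS and ValRS-m were in that of replicate 1 alone, and AlaRS-m was in neither. IleRS-m, which had no conservative summit, was in the list of replicate 1. Over the 16 occupied genes the log2 ratio of replicate 1 to replicate 2 ran from -0.46 to 1.18 with a median of 0.11.

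**Figure D2:**
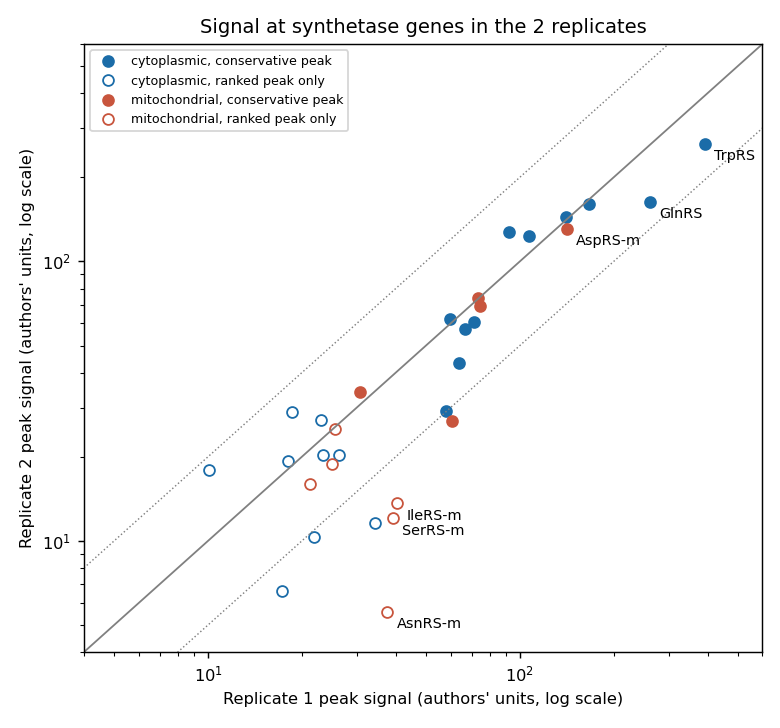
Signal of the strongest peak within 500 bp in the ranked list of replicate 1 (horizontal) and of replicate 2 (vertical), both on log axes in the authors' units, for the 31 synthetase genes with a peak in both lists. The solid line marks equal values and the dotted lines a ratio of 2; 7 genes lie below the lower dotted line and 0 above the upper one.

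The 19 genes without a conservative summit were not empty in the ranked list, which has no threshold: 18 had a peak within 500 bp, with a median pooled signal of 42.6. Of the 9664 protein-coding genes without a conservative summit, 65.4% had such a peak, with a median of 31.8. Over all genes, occupied or not, the ranked median was 91.4 for cytoplasmic enzymes (20 of 20 genes) and 48.8 for mitochondrial enzymes (14 of 15), with 52.3 for the 10624 protein-coding genes that had a ranked peak. Among genes with a ranked peak, the mitochondrial median therefore lay below the protein-coding one and the cytoplasmic median above it. Genes without such a peak are left out of these medians. A ranked peak was present at 76.1% of all protein-coding genes and at 93.3% of the mitochondrial enzymes, so the order need not hold over all genes.

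Of the 9 unoccupied cytoplasmic genes, HisRS (histidine) came nearest to the threshold, with a ranked peak of 47.9 pooled, 23.1 in replicate 1 and 27.2 in replicate 2 at an IDR of 0.0298. CysRS (cysteine) followed at an IDR of 0.0486, with 42.4 pooled, 26.3 in replicate 1 and 20.3 in replicate 2. The closest conservative summit to a CysRS start site was 997 bp away, the shortest such distance in the group, and that of HisRS was 2833 bp away. The gene alpha-PheRS, which encodes the partner subunit of beta-PheRS, had 47.8 pooled, 34.3 in replicate 1 and 11.6 in replicate 2 at an IDR of 0.678, and its nearest conservative summit was 3713 bp away. The 2 subunits of this complex thus differed, with a pooled signal of 331 at beta-PheRS and 47.8 at alpha-PheRS. The other cytoplasmic genes had ranked signals of 46.1 at ThrRS, 42.7 at TyrRS, 32.0 at ValRS, 30.5 at LeuRS, 23.6 at LysRS and 15.8 at SerRS. Their nearest conservative summits were 4886, 6601, 7793, 7273, 2905 and 1463 bp away, in the same order.

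Among the 10 unoccupied mitochondrial genes, ArgRS-m was nearest to the threshold, with 48.3 pooled, 25.5 in replicate 1 and 25.1 in replicate 2 at an IDR of 0.0218. Its 2 replicates were nearly equal. In AsnRS-m they were not, with 37.6 in replicate 1 and 5.57 in replicate 2. Its pooled signal of 53.7, at an IDR of 0.711, was the highest ranked signal of the unoccupied genes. IleRS-m had 40.5 in replicate 1 and 13.6 in replicate 2 (49.3 pooled), and SerRS-m had 39.3 in replicate 1 and 12.03 in replicate 2 (44.0 pooled). These 3 genes had a replicate 1 signal above that of AlaRS-m, which was occupied, and a low replicate 2 signal. For unoccupied genes each replicate value is the strongest peak within 500 bp in that replicate's list. It was not matched to the pooled peak. TyrRS-m had a ranked signal of 46.6, TrpRS-m 42.5, ProRS-m 35.0, GluRS-m 29.0 and MetRS-m 19.5. CysRS-m had no pooled ranked peak within 500 bp and a signal of 4.08 in the list of replicate 2. The nearest conservative summits to these 10 genes lay between 2321 bp (SerRS-m) and 67061 bp (MetRS-m) away. Those of AsnRS-m, IleRS-m, ArgRS-m, TyrRS-m and TrpRS-m were 3175, 9851, 20517, 3931 and 2670 bp away. Those of ProRS-m, GluRS-m and CysRS-m were 16175, 4476 and 2707 bp away.

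Across the 31 synthetase genes with a ranked peak in both replicates, replicate 1 was more than 2 times replicate 2 at 7 genes and the reverse held at 0. Over all 9329 protein-coding genes with both values these counts were 1290 and 323, so a higher replicate 1 was also the more frequent pattern genome-wide.

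For 12 amino acids the annotation holds 1 cytoplasmic and 1 mitochondrial gene. Both genes were occupied for 2 of them, aspartate, with 292 at AspRS and 279 at AspRS-m, and alanine, with 101 at AlaRS and 60.6 at AlaRS-m. The cytoplasmic gene alone was occupied for 5 (arginine, asparagine, isoleucine, methionine and tryptophan), and the mitochondrial gene alone for 2 (leucine and valine). Neither was occupied for 3, cysteine, serine and tyrosine. The widest gap was that of tryptophan, with 659 at TrpRS and 42.5 at TrpRS-m. For leucine the order was the other way, with 30.5 at LeuRS and 144 at LeuRS-m, and likewise for valine, with 32.0 at ValRS and 94.9 at ValRS-m. Where both genes had a ranked peak, the cytoplasmic one had the higher signal for 7 of 11 amino acids.

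Of the 6 cytoplasmic symbols with no counterpart ending in -m, GlnRS, GluProRS and GlyRS were occupied, and HisRS, LysRS and ThrRS were not. In human cells 1 gene each for the glycine and the lysine enzyme serves both compartments, and GlyRS (134) and LysRS (23.6) lay on different sides of the threshold here. Of the 14 cytoplasmic symbols with a counterpart, the PheRS subunits included, 8 were occupied (57.1%). GluProRS was occupied, while neither GluRS-m nor ProRS-m was.

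Occupied summits sat close to the start of the synthetase gene in most cases. The summit was upstream of the TSS in 14 of 16 genes (87.5%), against 75.7% of occupied protein-coding genes, and within 100 bp of it in 11 (68.8%), against 69.8%. The median position was -55 bp in the synthetase genes and -39 bp in all occupied protein-coding genes.

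**Figure D3:**
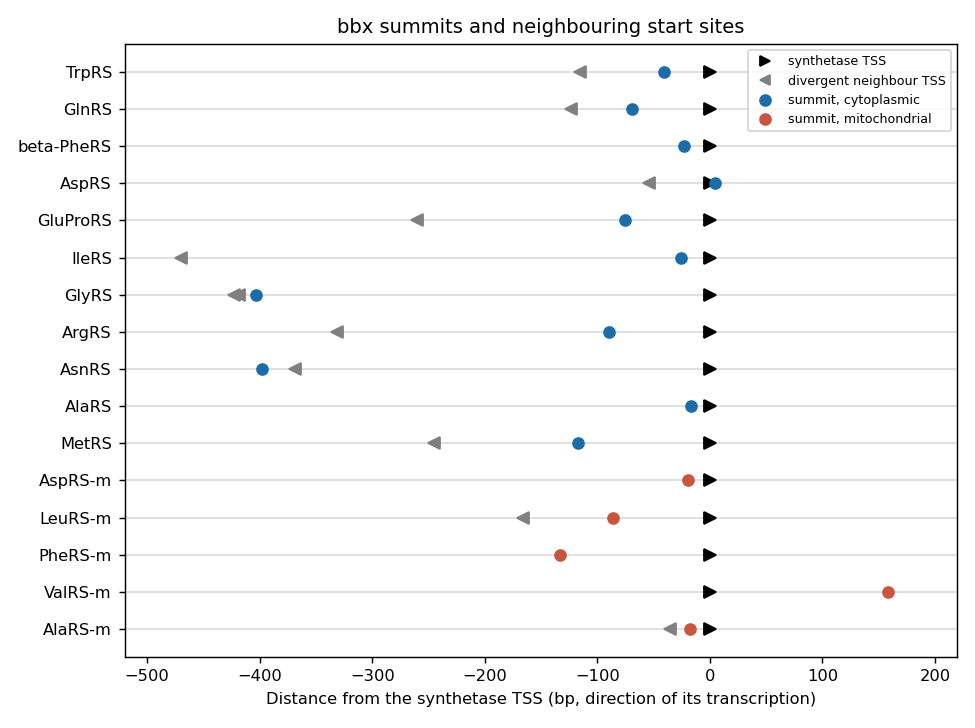
Position of the strongest bbx summit (circles) at the 16 occupied synthetase genes, in bp from the synthetase TSS in the direction of its transcription, with the TSSs of divergent protein-coding genes that have the same summit within 500 bp (grey). Cytoplasmic genes are above and mitochondrial genes below, each from high to low signal, and 11 of the 16 rows hold a grey arrowhead.

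At 11 of the 16 genes the same summit also lay within 500 bp of the TSS of a protein-coding gene transcribed the other way, so it cannot be given to either gene alone. Shared summits were not counted over all genes. By a related count, 2103 of the 4304 occupied protein-coding genes had an opposite-strand protein-coding gene starting within 500 bp upstream, as did 11 of the 16. TrpRS faced Vps16A, a gene for vesicle tethering, with 115 bp between the TSSs. GlnRS faced RIOK2, which encodes a kinase of small ribosomal subunit maturation, at 123 bp. AspRS faced Nmda1 at 54 bp. In these 3 genes the whole space between the start sites was shorter than the fragments of 200 to 800 bp to which chromatin was sheared.

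The other shared summits spanned a wide range of distances. AP-1sigma, a clathrin adaptor subunit, began 260 bp from GluProRS, and Hem, a subunit of the actin-regulating SCAR complex, 470 bp from IleRS. The weaker second summit of IleRS lay on the Hem side, close to the Hem TSS. CG8578 began 331 bp from ArgRS, close to that gene's second summit, and CG15084 began 245 bp from MetRS. Dhc64C, the dynein heavy chain, began 166 bp from LeuRS-m, and Fitm, a lipid storage gene, 35 bp from AlaRS-m. For GlyRS and AsnRS the strongest summit was beside the partner gene and not beside the synthetase. The GlyRS summit lay at -15 bp from the TSS of Plp, the fly pericentrin-like gene, and at -20 bp from that of sstn. The AsnRS summit lay at 29 bp inside DCTN6-p27, a dynactin subunit gene. In 5 of the 11 genes (GlnRS, GlyRS, AsnRS, LeuRS-m and AlaRS-m) the strongest summit was nearer to the partner's TSS. For GlnRS, LeuRS-m and AlaRS-m this was by little. Their summits lay at -69, -86 and -18 bp from the synthetase TSS and at -54, -80 and -17 bp from the partner's. The 5 genes with a summit of their own were beta-PheRS, AlaRS, AspRS-m, PheRS-m and ValRS-m.

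The same head-to-head arrangement was counted over all synthetase genes, occupied or not, after the shared summits had been seen. A protein-coding gene on the opposite strand began within 500 bp upstream of 22 of the 35 synthetase genes (62.9%), against 27.3% of all protein-coding genes. Genes with such a partner were more often occupied genome-wide: 55.1% of 3815 genes with a partner and 21.7% of 10153 genes without one. Among synthetase genes the shares were 11 of 22 with a partner (50%, 30.7 to 69.3%) and 5 of 13 without one (38.5%, 17.7 to 64.5%). If each class were occupied at its genome-wide share, 14.9 of the 35 genes would be, against the 16 observed.

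The arrangement was also counted by compartment. Of the 20 cytoplasmic genes 15 had a divergent partner (75%), and of the 15 mitochondrial genes 7 did (46.7%). At the genome-wide shares by class, 9.35 cytoplasmic genes would be occupied, against 11 observed, and 5.59 mitochondrial genes, against 5 observed. With a partner 9 of 15 cytoplasmic and 2 of 7 mitochondrial genes were occupied. Without a partner the counts were 2 of 5 cytoplasmic and 3 of 8 mitochondrial genes.

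Close spacing did not go with a summit in every case. SerRS began 8 bp from CG17260, AsnRS-m 53 bp from ste24a, TyrRS-m 55 bp from CG3589 and LysRS 62 bp from Hecw, and none of these 4 pairs of start sites had a conservative summit within 500 bp of the synthetase.

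**Figure D4:**
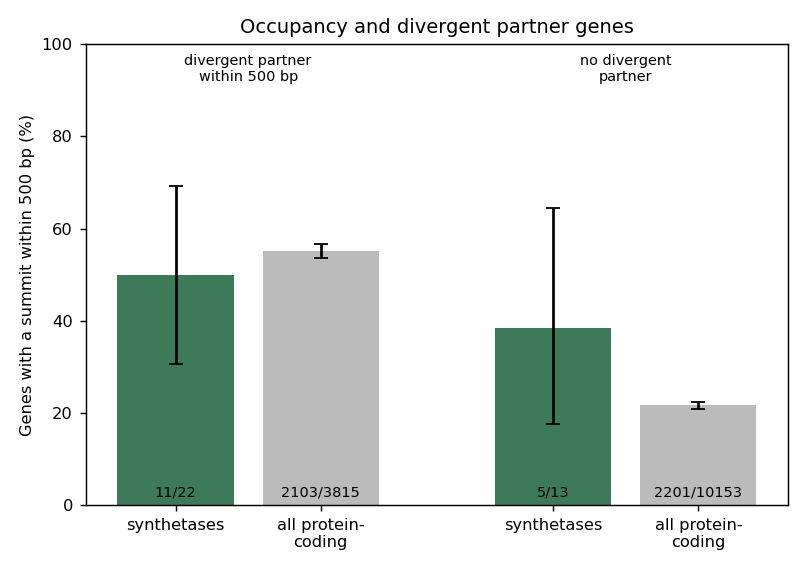
Percent of genes with a conservative bbx summit within 500 bp of a TSS, for synthetase genes (green) and all protein-coding genes (grey), with a divergent protein-coding partner within 500 bp on the left and without one on the right. Bars are shares with 95% Wilson intervals, numbers are occupied genes over all genes in the class, and the synthetase intervals are wide, from 30.7 to 69.3% on the left.

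Letter patterns were counted within 100 bp on either side of the summit, on both strands, at the 16 synthetase summits and at the 3197 distinct peaks assigned to occupied protein-coding genes. The DRE (TATCGATA), known as the site of the factor Dref, was present at 7 of 16 (43.8%) and at 23.7% of all these peaks. All 7 were cytoplasmic genes, AlaRS, ArgRS, AsnRS, AspRS, GlyRS, IleRS and TrpRS, so that 7 of 11 occupied cytoplasmic genes and 0 of 5 occupied mitochondrial genes held it there. Its centre lay 1 bp from the AlaRS summit, 13 bp from that of AsnRS and 59 bp from that of ArgRS on the downstream side. At GlyRS, IleRS, AspRS and TrpRS it lay on the upstream side, at -11, -13, -20 and -28 bp. The DREs of GlyRS and AsnRS were beside the partner gene's TSS, at -414 and -385 bp from that of the synthetase.

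In the promoter window, from 250 bp before to 50 bp after a gene start, the DRE occurred in 5 of 16 occupied synthetase genes (AlaRS, ArgRS, IleRS, PheRS-m and TrpRS) and in 0 of the 19 others. By compartment these were 4 of all 20 cytoplasmic and 1 of all 15 mitochondrial genes. The window was set at the outermost annotated start of each gene. It therefore missed the occupied TSS of AspRS, where a DRE lay at -15 bp. Over all protein-coding genes the DRE occurred in this window in 24.3% of the 4304 occupied and in 2.72% of the 9664 unoccupied ones. The 7 synthetase summits with a DRE had a median signal of 134, and the 9 without one had 144. Over all 3197 peaks the medians were 209 for the 759 with a DRE and 114 for the 2438 without. The synthetase medians are close and rest on 7 and 9 genes with signals from 60.6 to 659, so no order was read from them. TrpRS (659) had one, while GlnRS (433) and beta-PheRS (331) did not.

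The shorter core CGATA, contained in the DRE and known as the site of the boundary protein BEAF-32, was at 12 of 16 synthetase summits (75%) and at 68.3% of all peaks. It was at 11 of 11 cytoplasmic and at 1 of 5 mitochondrial summits, that of AspRS-m. In the promoter window, occupied or not, 15 of 20 cytoplasmic genes (75%) and 8 of 15 mitochondrial genes (53.3%) held CGATA. The occupied AspRS-m, PheRS-m and ValRS-m were among these 8. The share over all protein-coding genes was 47.3%. The core of promoter motif 1 (GGTCACAC) was at 3 of 16, GlnRS, beta-PheRS and AspRS-m (18.8%), and at 9.70% of all peaks. The E-box CACGTG, known as a Myc site, was at GlnRS and LeuRS-m (12.5%) and at 4.0% of all peaks. The ATF4 element TGATGNAA was at beta-PheRS alone (6.25%), and at 2.5% of all peaks.

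Of patterns named for HMG-box factors, the TCF site ATCAAAG and the SOX site AACAATG were each at 0 of 16 synthetase summits, and at 1.88% and 3.88% of all peaks. The repeat GAGAG was at 3 of 16 (18.8%) and at 22.5% of all peaks, and TATAAA at 5 of 16 (31.2%) and at 22.4%. With 16 summits, 1 gene more or less moves each of these shares by 6.25 percentage points.

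Of 14 other genes of the pathway, listed by symbol, 6 were occupied (42.9%), against 30.8% of all protein-coding genes. Of the 3 scaffold genes of the multi-synthetase complex, AIMP3 had 192 in replicate 1, 110 in replicate 2 and 309 pooled, AIMP2 had 34.6 in replicate 1, 45.5 in replicate 2 and 90.6 pooled, and AIMP1 had no conservative summit (55.2 in the ranked list). AIMP3 thus lay between beta-PheRS and AspRS. Among genes that assist charging, GatC and GatB, subunits of the enzyme that makes glutaminyl-tRNA in mitochondria, had 165 and 90.3 pooled. The GatC summit, at -213 bp, was shared with PolG2 and Polr2C, and that of GatB with Tsc1. The third subunit gene, GatA, was unoccupied (35.8 ranked), as were Slimp, a paralogue of the mitochondrial serine enzyme (47.9), and Dtd, which removes D-amino acids from tRNA (42.0).

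Of the carriers that bring charged tRNA to the ribosome, eEF1alpha1 had 60.9 in replicate 1, 51.6 in replicate 2 and 111 pooled. Its paralogue eEF1alpha2 and the mitochondrial carriers mEFTu1 and mEFTu2 were unoccupied, with ranked signals of 67.9, 39.5 and 50.6. Gcn2, the kinase that senses uncharged tRNA, had 41.2 in replicate 1, 57.9 in replicate 2 and 103 pooled, and its summit was shared with Ugt35D1. The fly ATF4 gene crc was unoccupied, with a ranked signal of 49.6.

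The cytoplasmic share was above the mitochondrial one under each of the 10 alternative settings tried. With 4 settings the mitochondrial share was at or below that of all protein-coding genes: at an IDR of at most 0.001 (20% of mitochondrial and 21.4% of all genes), in replicate 2 alone (20% and 23.7%), within 1000 bp (33.3% and 33.6%), and with each summit given to its nearest gene alone (20% and 24.1%). The cytoplasmic share ran from 45% to 65% over all settings and was above that of all protein-coding genes in each. That background does not take divergent partners into account. At the genome-wide shares by class, 46.8% of cytoplasmic genes would be occupied in the main setting, against 55% observed. This was not computed for the other settings.

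**Figure D5:**
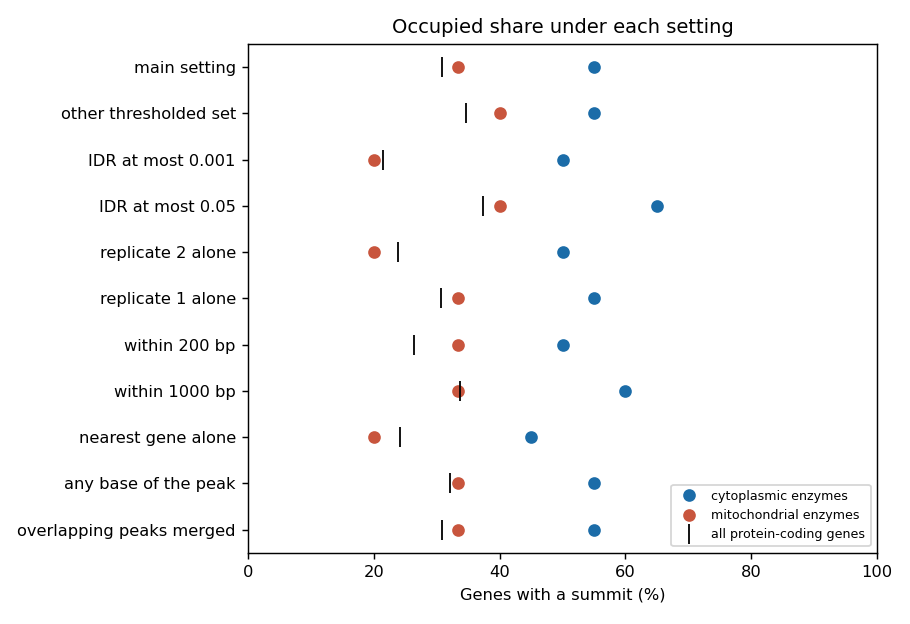
Percent of cytoplasmic (blue) and mitochondrial (red) synthetase genes and of all protein-coding genes (black ticks) with a bbx summit, under each setting listed on the vertical axis. The blue points lie from 45% to 65% and to the right of the black ticks throughout, while the red points, from 20% to 40%, lie on either side of them.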

How the data were processed

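Sites of bbx-eGFP in 2 embryo samples of 1 group were taken from peak lists deposited by the authors, who called peaks against a control alignment on dm6, per the deposited text files. No source used here names the aligner, the peak caller or their settings. The deposited signal is the authors' enrichment per peak (pooled or per replicate), the deposited score is a rescaled IDR, and the deposited −log10 values are those of q and IDR. No read totals were used, so depth is unknown. For occupied genes, replicate signals came from the overlapping peak (at least 1 bp) in each replicate's own ranked list. For unoccupied genes they were the strongest peak within 500 bp of a TSS in that list, not matched to the pooled peak. The latter rule also gave the plot of replicate 1 against replicate 2 and the counts of ratios above 2. The 4 columns of pooled lists that name no replicate were not used. Genes and TSSs came from Ensembl release 115 on 7 chromosomes; Python 3.11.15, pandas 2.3.3 and SciPy 1.17.1 were used. With 1 group, and with genes that are not replicates, no test was run; Wilson intervals (95%) cover counting error. Full values are given for occupied genes above the occupied median and the weakest 3, and every gene is named. Members, lists and motifs were chosen with earlier results of these data known; the count by divergent partner was added after seeing the data. The step that assigns summits to genes was tested on simulated summits, at single TSSs far from those of other genes. Shared promoters, motif counts and replicate overlaps were not covered by that test.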

Additional observations from a re-analysis of the deposited data

How the results depend on the processing

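The count of 16 occupied genes stayed between 12 and 19 under the 10 alternatives, and that of 11 cytoplasmic genes between 9 and 13. The count of 5 mitochondrial genes was 3 at an IDR of at most 0.001, where AlaRS-m and ValRS-m were lost, and 3 with each summit given to its nearest gene alone, where AlaRS-m and LeuRS-m were lost. The summits of AlaRS-m and LeuRS-m were nearly as close to the synthetase TSS (-18 and -86 bp) as to the partner's (-17 and -80 bp). Leaving out 1 replicate gave 3 to 5 mitochondrial genes, with 3 in replicate 2 alone (without AlaRS-m and ValRS-m) and 5 in replicate 1 alone (IleRS-m in, AlaRS-m out). The median signal of occupied cytoplasmic genes was 134.5 at an IDR of at most 0.05, against 227.8, because HisRS and CysRS entered with low signals. That of mitochondrial genes was 118.9 both there and in the other thresholded set, against 143, after ArgRS-m or TyrRS-m entered. In 1 replicate alone, on that replicate's own scale, the medians were 92.61 to 125.3 for cytoplasmic and 73.57 to 74.26 for mitochondrial genes. Within 200 bp GlyRS was lost, and within 1000 bp CysRS was gained. No paired analysis was possible because the study has 1 group. The depth is unknown, so how far it limits the unoccupied genes was not tested.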
